A study of Homo sapiens with 12 samples.

Results

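SNU638 is an established human gastric cancer cell line, and its RNA was profiled here in a pair of stable lines that carry different short hairpin RNAs against the same gene, SKA2. The comparison holds 3 libraries of the line with SKA2 hairpin 2 and 3 libraries of the line with SKA2 hairpin 1, 6 of the 12 libraries in the series, taken by their titles. Both lines were infected with packaged lentivirus and selected with puromycin, so each carries a lentiviral hairpin and has passed the same drug selection. No control library enters the contrast. The remaining libraries, 3 with SKA2 hairpin 3 and 3 with a control hairpin, helped to estimate the spread of each gene and are given as context. The design text speaks of selecting resistant clones, and the labels do not say whether a line grew from 1 clone or from several. Each hairpin is represented by 1 line, so an effect of the hairpin and an effect of the line cannot be told apart. Whether the 3 libraries per line are separate cultures is not stated in the labels, and the p-values below therefore measure the spread between libraries alone, which may be technical.

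A short hairpin RNA is cut by the cell into a small interfering RNA that lowers the messenger RNA it pairs with. Hairpins against 1 gene share that target and differ in sequence, and each can also lower other transcripts that pair with part of it. SKA2 belongs to the SKA complex, which keeps chromosomes attached to the ends of spindle microtubules during mitosis. Genes for mitosis are transcribed late in the cell cycle and genes for DNA replication earlier, so their messenger RNA is known to be lower in cells that are not dividing. In bulk RNA, fewer dividing cells and less of these transcripts per cell cannot be told apart.

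SKA2 itself was low in both lines, and no difference between them was detected. The gene (Entrez 348235) occupies chr17:59109951-59155269, minus strand, in GRCh38 (GENCODE v29). Its level was 23.3, 25.3 and 27.2 CPM (counts scaled to the total of the library) in the hairpin 2 libraries, against 26.0, 22.3 and 23.7 CPM in the hairpin 1 libraries. The groups overlapped. The means lay 79.0% below the control mean with hairpin 2 and 80.1% below it with hairpin 1. The log2 fold change of hairpin 2 over hairpin 1 was 0.07, with a 95% interval from -0.11 to 0.26, which is a ratio between 0.926 and 1.20 (adjusted p = 0.473 in edgeR's quasi-likelihood test). A two-sided exact permutation test over the 6 values gave p = 0.5, where 3 libraries against 3 can reach no lower than 0.1. SKA2 held 347 to 412 reads in a hairpin 2 library and 344 to 398 in a hairpin 1 library.

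Outside SKA2 the lines differed over most of the transcriptome. Of 12868 tested genes, 3631 were higher and 3782 lower with hairpin 2 than with hairpin 1, which is 28.2% and 29.4% of the genes tested. The threshold for a call was an adjusted p of 0.05 (Benjamini-Hochberg) in edgeR's quasi-likelihood test. With a change of at least 2-fold asked for as well, 846 genes (6.57%) were higher and 959 (7.45%) lower. All calls together are 57.6% of the genes tested. The median log2 fold change over all tested genes was -0.01, with quartiles at -0.42 and 0.40. In 76.7% of tested genes the hairpin 2 libraries did not overlap the hairpin 1 libraries in CPM.

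Libraries of 1 line were close to each other. Their log2 CPM correlated at 0.992 to 0.995 within a line and at 0.949 to 0.952 between the lines, a description over genes that share depth and library preparation. The first principal component held 84.6% of the variance of the 6 libraries. Totals ran from 14693343 to 15257682 expected counts with hairpin 2 and from 14988007 to 15538272 with hairpin 1. Median log2 fold changes of single chromosomes lay between -0.11 (chromosome 16) and 0.06 (chromosome X). Long genes tended higher with hairpin 2: the median log2 fold change was -0.15 in the 2574 genes with the shortest transcripts and 0.16 in the 2574 with the longest. The epithelial markers summed to 1092 to 1131 CPM with hairpin 2 and 2288 to 2370 CPM with hairpin 1, and all 9 were detected. The keratin genes KRT18 and KRT8 were the most abundant of them, at means of 327 and 316 CPM with hairpin 2, against 667 and 956 CPM with hairpin 1. KRT19, EPCAM, ESRP1 and CDH1 were at 191, 184, 42.1 and 2.22 CPM with hairpin 2, against 351, 232, 55.4 and 8.65 CPM with hairpin 1. The other markers had higher means with hairpin 2: CLDN7, GRHL2 and CLDN4 were at 52.4, 2.77 and 0.506 CPM, against 45.0, 0.965 and 0.323 CPM with hairpin 1. CLDN4 held only 23 reads with hairpin 2 and 15 with hairpin 1. Blood markers summed to 10.9 to 13.4 CPM with hairpin 2 and 20.4 to 23.6 CPM with hairpin 1, mostly CD68, with CD3E at 0. Fibroblast markers summed to 7.18 to 8.73 CPM with hairpin 2 and 5.07 to 6.27 CPM with hairpin 1, mostly COL1A1, with DCN at 0, and endothelial markers summed to 0.134 to 0.461 CPM with hairpin 2 and 0.261 to 1.23 CPM with hairpin 1. With offsets for transcript length in the fit, 96.0% of the calls described above were shared and none had the opposite direction. The part of these marker genes in the results below was not tested.

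**Figure D1:**
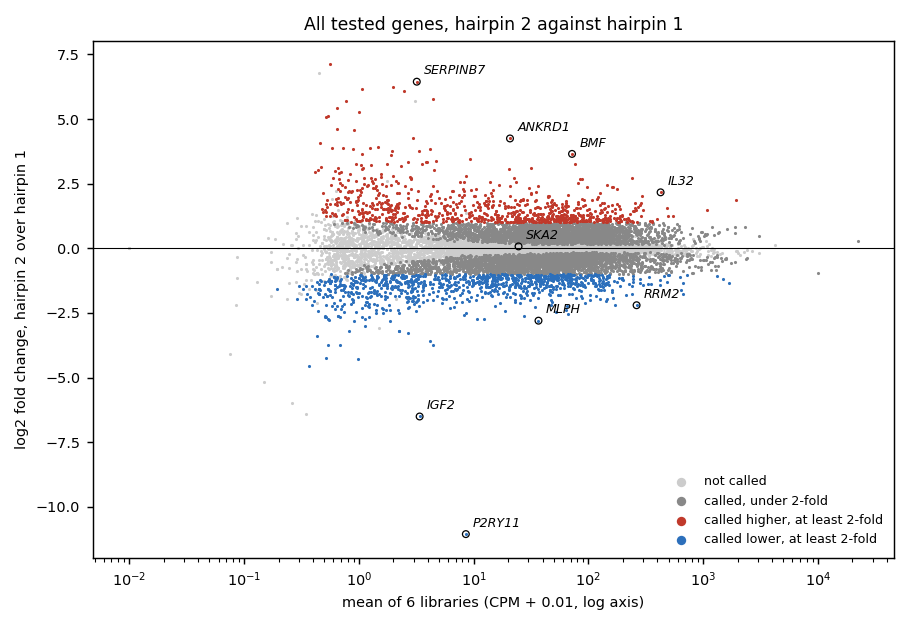
Each dot is 1 of the 12868 tested genes, with the mean CPM of the 6 libraries on a log axis and the log2 fold change of hairpin 2 over hairpin 1 on the vertical axis. Coloured dots are the 846 genes called higher and the 959 called lower at 2-fold or more, and SKA2 lies at 0.07 between them.

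The widest rises were genes that were near 0 with hairpin 1. SERPINB7, a serine protease inhibitor gene on chromosome 18, had 5.97, 6.11 and 6.85 CPM with hairpin 2, against 0.196, 0 and 0 CPM with hairpin 1. That is 288 reads with hairpin 2 and 3 with hairpin 1, a ratio of 97.8 with a 95% counting interval from 33.1 to 477, which covers counting error only. UBD, which encodes the ubiquitin-like protein FAT10, had 223 reads with hairpin 2 and 3 with hairpin 1, a ratio of 75.8 (25.6 to 370). MYCT1 had 177 reads with hairpin 2 and 2 with hairpin 1, a ratio of 90.2 (24.6 to 751). Its control mean was 2.42 CPM, nearer to the hairpin 2 mean of 3.87 CPM than to 0.0429 CPM with hairpin 1. CALB2, the calretinin gene, had 96 reads with hairpin 2 and 1 with hairpin 1, a ratio of 97.8 (17.1 to 3904). The sulfotransferase gene CHST11 rose to 8.39, 9.39 and 8.50 CPM with hairpin 2, against 0.131, 0.260 and 0.0634 CPM with hairpin 1. Among genes with more reads, ANKRD1, an ankyrin repeat gene known as a target of the Hippo pathway factors YAP and TAZ, was at 39.0, 37.2 and 42.0 CPM with hairpin 2, against 1.76, 2.53 and 1.90 CPM with hairpin 1. Its log2 fold change was 4.25 ± 0.12 (SE, n = 3 libraries per line; adjusted p = 1.17e-09 in edgeR). The other genes among the 12 largest rises were LOC102723996, TCIM, LOC400499, CELF6, RSAD2 and IL16, with log2 fold changes from 3.77 to 4.28. RSAD2 encodes the antiviral protein viperin and IL16 a cytokine. Apart from MYCT1, the 12 largest rises had control means nearer to hairpin 1.

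The widest falls included imprinted growth genes. IGF2, the insulin-like growth factor 2 gene, had 0.134, 0.0643 and 0 CPM with hairpin 2, against 6.47, 6.62 and 6.98 CPM with hairpin 1. These are 3 reads with hairpin 2 and 311 with hairpin 1, a ratio of 102 of hairpin 1 over hairpin 2 (34.5 to 496). PEG10, a paternally expressed gene of retrotransposon origin, had 0.537, 0.707 and 0.593 CPM with hairpin 2, against 8.23, 8.05 and 8.37 CPM with hairpin 1. TERT, the catalytic subunit gene of telomerase, had 0.537, 0.450 and 0.395 CPM with hairpin 2, against 3.85, 3.63 and 2.35 CPM with hairpin 1. MLPH, which encodes the melanosome transport protein melanophilin, fell to 9.26, 8.30 and 10.1 CPM with hairpin 2, against 62.5, 62.9 and 67.3 CPM with hairpin 1. Lines without overlap were a condition for naming these 4 genes, so their lack of overlap is not a further result. STRA6, the retinol uptake receptor gene, MANSC4, CAMK2N1, FNDC10, RCN3, EFCAB12 and RND2 completed the list with log2 fold changes from -3.57 to -2.74. MANSC4 had a control mean of 1.09 CPM, nearer to 0.503 CPM with hairpin 2 than to 4.88 CPM with hairpin 1. EFCAB12 had a control mean of 0.404 CPM, nearer to 0.29 CPM with hairpin 2 than to 1.96 CPM with hairpin 1. The control mean of PEG10 was 3.25 CPM, between the lines. Other genes of the 12 largest falls had control means nearer to hairpin 1. P2RY11, a purine receptor gene, had 0 reads in all hairpin 2 libraries and 794 in the hairpin 1 libraries. With a floor of 3 reads set for the hairpin 2 group, the ratio of hairpin 1 over hairpin 2 is 259.7. From the counts without the floor, the lower 95% counting limit of the ratio was 210.7. P2RY11 overlaps the readthrough gene PPAN-P2RY11, at 13.8, 13.2 and 10.9 CPM with hairpin 2, against 13.1, 6.68 and 9.07 CPM with hairpin 1, and the division of reads between them is uncertain.

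For most genes that were 2-fold apart, the other 2 lines lay nearer to hairpin 1 than to hairpin 2. Of the 846 genes at least 2-fold higher with hairpin 2, the control line lay nearer to the hairpin 1 line in 83.7% and the hairpin 3 line did so in 93.9%. Of the 959 genes at least 2-fold lower, these shares were 81.1% and 93.6%. These shares are descriptions, since the genes were picked on the hairpin 2 and hairpin 1 values. Levels in the control and hairpin 3 libraries carry a further limit: the dependence of a gene's level on transcript length ran from -0.45 to -0.19 log2 units per doubling of length in the control libraries and from -0.30 to -0.04 with hairpin 3, against 0.02 to 0.07 with hairpin 2 and -0.05 to -0.03 with hairpin 1.

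**Figure D2:**
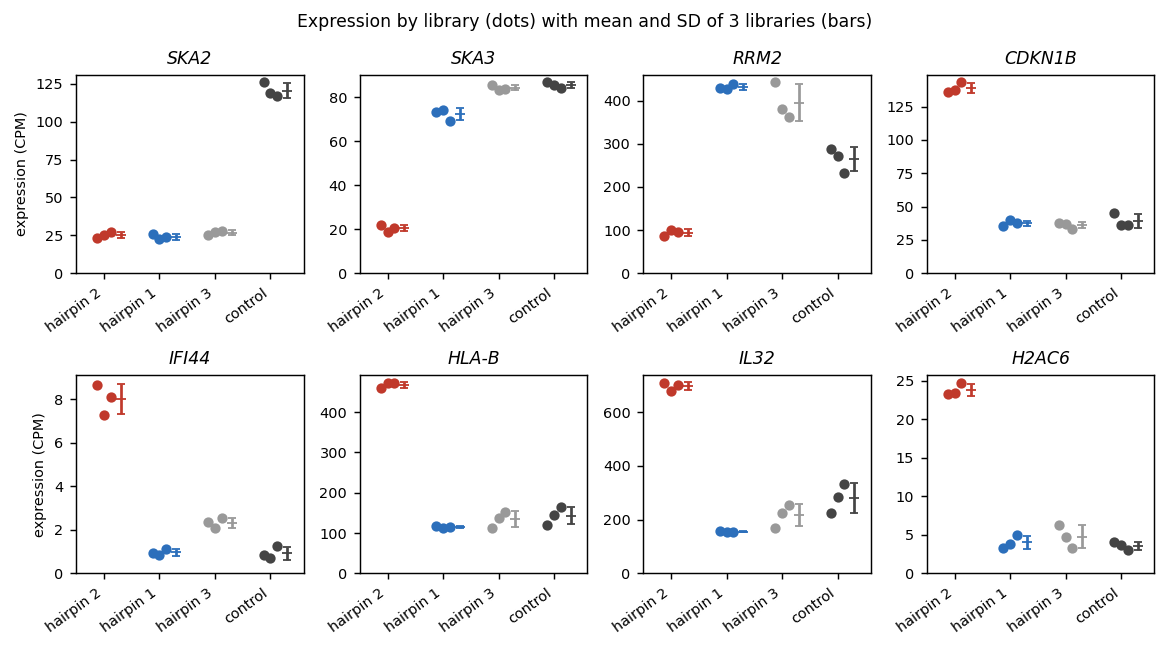
Dots show the CPM of 8 genes in each library, by line, and bars the mean and SD of 3 libraries, on linear axes that start at 0. SKA2 overlaps between hairpin 2 and hairpin 1, while SKA3 and RRM2 are lower and CDKN1B, IFI44, HLA-B, IL32 and H2AC6 higher in every hairpin 2 library than in every hairpin 1 library. In either direction, the lines do not overlap in 76.7% of all tested genes.

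Kinetochore genes fell together with hairpin 2, the partners of SKA2 among them. SKA3 (chromosome 13, 21153595 to 21176602, minus strand), which binds the NDC80 complex, had 21.8, 18.8 and 20.7 CPM with hairpin 2, against 73.4, 74.3 and 69.2 CPM with hairpin 1. SKA1 (chromosome 18, 50374995 to 50394173, plus strand), the microtubule-binding subunit, had 18.8, 18.4 and 20.03 CPM with hairpin 2, against 40.6, 42.8 and 43.9 CPM with hairpin 1. The lines did not overlap for either gene, as in 76.7% of all tested genes. The log2 fold changes were -1.82 ± 0.07 for SKA3 and -1.15 ± 0.07 for SKA1 (SE, n = 3 per line; adjusted p = 5.79e-09 and 1.77e-07 in edgeR). PRR11, a cell-cycle gene that lies head to head with SKA2, had 67.8, 62.6 and 70.8 CPM with hairpin 2, against 94.7, 93.3 and 102 CPM with hairpin 1, a log2 fold change of -0.53 ± 0.16 (adjusted p = 0.0123 in edgeR). Of 19 tested genes of the SKA complex and the outer kinetochore, which grips the microtubule, 17 fell and none rose, beside 29.4% lower over all genes. Of them 10 fell at least 2-fold, beside 7.45% of all genes. In this list, in the list of mitotic entry and cytokinesis and among the ribosomal proteins, 0 members were higher at an unadjusted p under 0.05 in edgeR, and 0 were called higher by the DESeq2 Wald test. The exceptions were SKA2 itself and PMF1, a subunit gene of the MIS12 complex, at -0.27 (adjusted p = 0.181 in edgeR). PMF1 was called lower with only the 6 libraries in the edgeR fit (adjusted p = 0.00371). The list had a median log2 fold change of -1.06, against -0.01 over all tested genes. NUF2 and NDC80, which form 1 arm of the NDC80 complex, were at 15.7, 15.6 and 14.9 CPM and at 17.7, 18 and 16.7 CPM with hairpin 2, against 59.9, 55.3 and 58.1 CPM and 57.9, 56.3 and 54.7 CPM with hairpin 1.

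The inner kinetochore, which sits on the centromere, showed the same pattern with 18 of 20 genes lower, beside 29.4% of all genes. CENPC, which anchors the complex to centromeric chromatin, was the 1 gene that rose (0.33), and CENPT did not pass (-0.08, adjusted p = 0.672 in edgeR). CENPN, a reader of centromeric nucleosomes, fell to 27.1, 23.2 and 24.4 CPM with hairpin 2, against 87.5, 87.4 and 86.9 CPM with hairpin 1. HJURP, the chaperone that loads the centromeric histone, fell by 1.33 on the log2 scale. The median of the list was -0.92. Of 16 spindle checkpoint and chromosomal passenger genes 14 fell, 12 of them at least 2-fold, beside 29.4% and 7.45% of all genes. Their median was -1.21. MAD2L1, the checkpoint protein that restrains CDC20, was at 64.2, 70.0 and 68.1 CPM with hairpin 2, against 186, 178 and 188 CPM with hairpin 1. MAD1L1, the partner that recruits it, had 32.8, 29.4 and 29.4 CPM with hairpin 2, against 30.6, 30.6 and 31.1 CPM with hairpin 1, and did not pass (adjusted p = 0.944 in edgeR).

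Genes that drive entry into mitosis and separate the cell followed. Of 40 tested, none rose and 37 fell, 24 of them at least 2-fold, beside 29.4% and 7.45% of all genes. The list median was -1.20. CDK1, the kinase that starts mitosis, was at 44.2, 45.5 and 47.5 CPM with hairpin 2, against 164, 156 and 162 CPM with hairpin 1. CCNA2, which encodes its partner cyclin A2, was at 32.6, 36.5 and 41.2 CPM with hairpin 2, against 143, 132 and 138 CPM with hairpin 1. Both were under the hairpin 1 range in every hairpin 2 library, and so were TPX2, a spindle assembly factor (-1.31), and PRC1, which bundles the central spindle (-1.51). In either direction, the lines did not overlap in 76.7% of all tested genes. MASTL, a mitotic kinase, did not pass (-0.01, adjusted p = 0.938 in edgeR), nor did LIN54 (-0.36) and NCAPH2 (-0.26). LIN54 and NCAPH2 were called lower with only the 6 libraries in the edgeR fit (adjusted p = 0.000374 and 0.000412). Of 13 mitotic kinesins 12 fell, beside 29.4% of all genes. KIF2A, a microtubule depolymerase, did not pass at 0.31 (adjusted p = 0.0569 in edgeR). It was called higher by the DESeq2 Wald test (adjusted p = 0.0303) and with only the 6 libraries in the edgeR fit (adjusted p = 0.000152). KIF2C, a related depolymerase, was at 60.4, 59.6 and 64.5 CPM with hairpin 2, against 169, 169 and 163 CPM with hairpin 1. Over the 5 lists of mitosis and the kinetochore, 98 of 108 distinct tested genes fell, beside 29.4% of all genes, and 1 rose. Of these falls 64 were at least 2-fold, beside 7.45% of all genes.

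DNA replication genes fell with them, by less on the median. Of 55 tested, 52 fell, 20 of them at least 2-fold, beside 29.4% and 7.45% of all genes. The origin recognition gene ORC4 rose by 0.26, and the list median was -0.92. ASF1B, a histone chaperone of the replication fork, was at 42.0, 40.6 and 41.6 CPM with hairpin 2, against 164, 161 and 172 CPM with hairpin 1. CDC6, which loads the replicative helicase, was at 65.0, 68.9 and 61.6 CPM with hairpin 2, against 159, 165 and 166 CPM with hairpin 1. TOPBP1 (-0.29) and ORC2 (-0.21) did not pass. Both were called lower with only the 6 libraries in the edgeR fit (adjusted p = 3.81e-05 and 0.00225). Of 19 genes of nucleotide supply, 17 fell, 6 of them at least 2-fold, beside 29.4% and 7.45% of all genes. Their median was -0.64. RRM2, the regulated subunit of ribonucleotide reductase, had the lowest value of the list, with 85.7, 101 and 95.3 CPM with hairpin 2, against 429, 428 and 439 CPM with hairpin 1, a log2 fold change of -2.20 ± 0.10 (adjusted p = 1.86e-08 in edgeR). TYMS, thymidylate synthase, fell by 1.62, while GART, a purine synthesis enzyme, was at 0.04 (adjusted p = 0.723 in edgeR). Of 35 homologous recombination and Fanconi repair genes, 28 fell, 14 of them at least 2-fold, beside 29.4% and 7.45% of all genes. FANCL rose by 0.24, and the list median was -0.83. FANCI was at 53.1, 49.6 and 51.2 CPM with hairpin 2, against 196, 197 and 203 CPM with hairpin 1, and PALB2, ATR and FANCM did not pass (-0.01, 0.03 and 0.08).

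Promoters of these genes are shown because they hold letters known from the binding sites of cell-cycle factors. Each stretch runs from 150 bases before to 30 bases after the gene's start in RefSeq (GRCh38.p14), and capitals mark matches on either strand to 3 motifs: TTTGAA, the CHR element bound by the DREAM and MuvB complexes, CCAAT, the box bound by NF-Y, and the E2F letters TTTGGCGC, TTTGCCGC, TTTCGCGC or TTTCCCGC. SKA3 lies on chromosome 13 (chr13:21176523-21176702, minus strand), NDC80 on chromosome 18 (chr18:2571407-2571586, plus strand), CDK1 on chromosome 10 (chr10:60778181-60778360, plus strand), CDC6 on chromosome 17 (chr17:40287729-40287908, plus strand) and E2F2 on chromosome 1 (chr1:23531204-23531383, minus strand).
SKA3: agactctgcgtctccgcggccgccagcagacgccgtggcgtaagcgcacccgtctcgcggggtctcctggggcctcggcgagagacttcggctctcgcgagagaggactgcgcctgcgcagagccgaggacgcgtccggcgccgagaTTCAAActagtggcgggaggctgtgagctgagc
NDC80: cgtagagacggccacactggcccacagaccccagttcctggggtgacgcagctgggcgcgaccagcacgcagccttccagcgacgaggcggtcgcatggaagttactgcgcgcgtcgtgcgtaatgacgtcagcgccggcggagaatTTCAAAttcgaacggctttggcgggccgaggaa
CDK1: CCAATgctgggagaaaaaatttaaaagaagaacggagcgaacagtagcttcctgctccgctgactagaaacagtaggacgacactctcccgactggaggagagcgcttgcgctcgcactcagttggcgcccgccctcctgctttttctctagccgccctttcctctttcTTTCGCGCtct
CDC6: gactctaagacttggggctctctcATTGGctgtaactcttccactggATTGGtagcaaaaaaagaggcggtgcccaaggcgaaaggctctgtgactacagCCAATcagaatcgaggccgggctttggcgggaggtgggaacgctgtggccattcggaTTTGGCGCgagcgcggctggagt
E2F2: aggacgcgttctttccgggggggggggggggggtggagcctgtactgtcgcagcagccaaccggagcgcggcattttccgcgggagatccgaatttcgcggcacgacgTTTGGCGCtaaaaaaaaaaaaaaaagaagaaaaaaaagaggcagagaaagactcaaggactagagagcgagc
The CHR letters span the start of SKA3 and of NDC80, from position -3 to 3. CDC6 holds 3 CCAAT boxes and 1 E2F match, CDK1 holds 1 of each, and E2F2 holds 1 E2F match from -42 to -35.

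Of the 12868 tested genes, 10530 had a RefSeq promoter. The CHR letters were in 41 of 89 promoters of the mitosis and kinetochore lists (46.1%) and in 5.12% of all 10530. CCAAT was in 55 of these 89 (61.8%) and in 28.9% of all. It was also in 24 of 48 promoters of replication genes (50.0%). In the replication-dependent histone list, where 13 genes were higher and 0 lower, 16 of 21 promoters held it (76.2%). The E2F letters were in 21 of 48 promoters of replication genes (43.8%), in 6 of the 89 mitotic ones (6.74%) and in 3.58% of all. CHR was in 2 of the 48 replication promoters (4.17%). Over the genes at least 2-fold lower with hairpin 2, 80 of 737 promoters held CHR (10.9%), 46 held E2F letters (6.24%) and 207 held CCAAT (28.1%). Over those at least 2-fold higher, 41 of 665 held CHR (6.17%), 17 held E2F letters (2.56%) and 200 held CCAAT (30.1%). The CCAAT shares of both sets were near the 28.9% of all promoters. A match is a description of letters and does not show that a factor binds there. Shares of the lists count every tested member with a promoter, whatever its change. They describe the lists and not the difference between the lines. The 2-fold sets hold members of these lists too.

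Genes of the E2F factors, the RB family, the G1 cyclins and their inhibitors changed in both directions. Of 28 tested, 6 rose and 14 fell, 5 in each direction at least 2-fold, beside 28.2% higher and 29.4% lower over all genes. CDKN2B, the p15 inhibitor of CDK4 and CDK6, was at 259, 268 and 273 CPM with hairpin 2, against 54.3, 50.7 and 51.2 CPM with hairpin 1. CDKN1B, which encodes p27, was at 136, 138 and 144 CPM with hairpin 2, against 35.7, 39.6 and 37.4 CPM with hairpin 1. CDKN1A, which encodes p21, was at 196, 194 and 186 CPM with hairpin 2, against 87.7, 83.1 and 88.0 CPM with hairpin 1. None of the 3 overlapped, as in 76.7% of all tested genes. Their log2 fold changes were 2.36 ± 0.09, 1.89 ± 0.09 and 1.15 ± 0.07 (SE, n = 3 per line). For CDKN1A the control libraries averaged 241 CPM, above both lines. E2F2, an activator of S-phase genes, was at 10.9, 9.13 and 8.37 CPM with hairpin 2, against 41.2, 42.7 and 39.9 CPM with hairpin 1. E2F3 (-0.13), E2F5 (0.06) and E2F7 (0.09) did not pass. E2F3 was called lower with only the 6 libraries in the edgeR fit (adjusted p = 0.0361). CDK6, named after its values were seen, rose to 121, 134 and 153 CPM with hairpin 2, against 43.1, 42.0 and 44.7 CPM with hairpin 1.

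**Figure D3:**
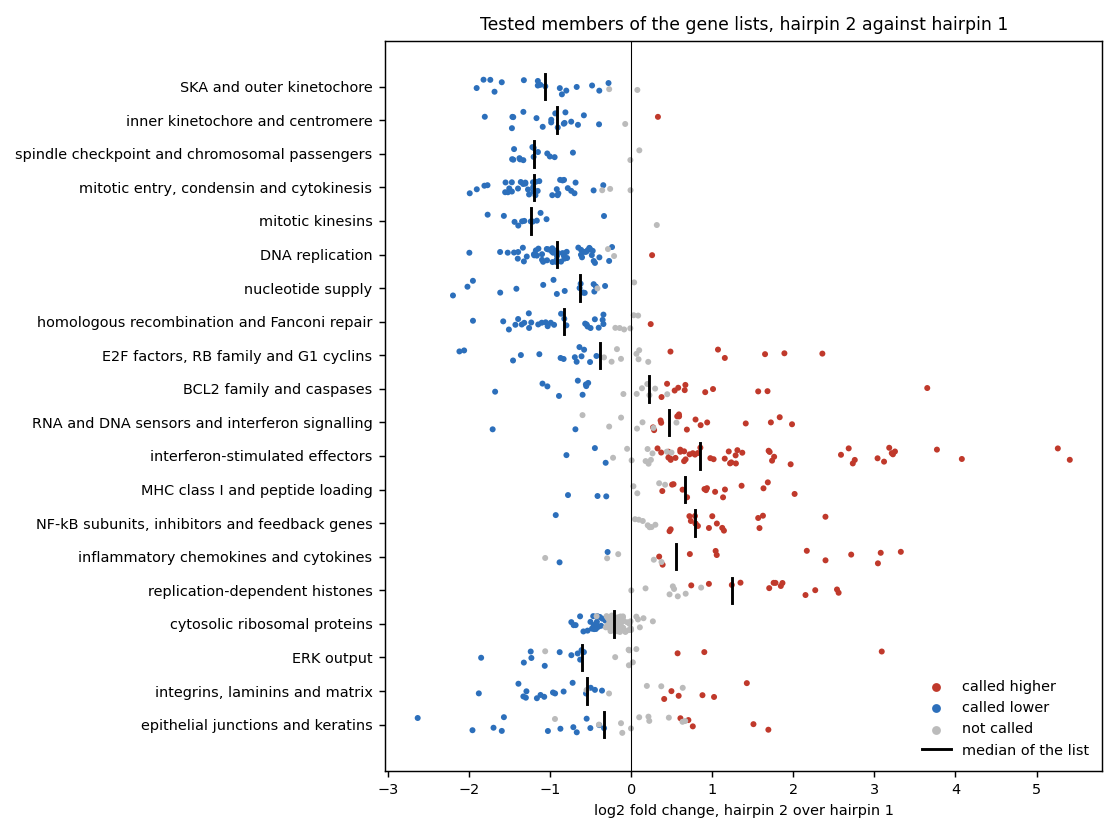
Each dot is a tested member of a gene list at its log2 fold change of hairpin 2 over hairpin 1, red where called higher, blue where called lower and grey where not called, and the black bars are list medians. The kinetochore, mitosis and replication lists have medians below 0, from -1.24 to -0.64 including nucleotide supply and repair, and the interferon, MHC class I, NF-kB, chemokine and histone lists have medians from 0.46 to 1.24.

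Of 27 genes of the BCL2 family and the caspases 11 rose and 9 fell, beside 28.2% higher and 29.4% lower over all genes, so the share that fell was near that of all genes. BMF, a BH3-only gene that starts apoptosis, was at 138, 136 and 126 CPM with hairpin 2, against 11.8, 10.1 and 9.96 CPM with hairpin 1, a log2 fold change of 3.65 ± 0.09 (adjusted p = 6.77e-10 in edgeR). The survival gene BCL2L2 rose by 1.68, while CASP6, an executioner caspase, fell by 1.68. BCL2L1 was at 0.13 (adjusted p = 0.227 in edgeR) and was called higher with only the 6 libraries in the edgeR fit (adjusted p = 0.00816).

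Interferon-stimulated genes rose with hairpin 2. These genes are known to be switched on when RNA or DNA sensors or interferon receptors signal through STAT and IRF factors. Of 59 tested effectors, 46 rose and 3 fell, 28 of the rises being at least 2-fold, beside 28.2% higher and 6.57% at least 2-fold higher over all genes. Their median was 0.85. IFI44 was at 8.66, 7.27 and 8.11 CPM with hairpin 2, against 0.915, 0.844 and 1.14 CPM with hairpin 1. OASL, related to the oligoadenylate synthetases, was at 4.77, 4.89 and 4.88 CPM with hairpin 2, against 0.588, 0.649 and 0.888 CPM with hairpin 1. Its control mean was 3.84 CPM, nearer to hairpin 2. At higher levels, SP100, a nuclear body protein gene, was at 170, 168 and 167 CPM with hairpin 2, against 73.9, 73.7 and 79.6 CPM with hairpin 1. TRIM5, a restriction factor gene, rose by 1.74. The lines did not overlap for any of these 4 genes, which were named for the smallest adjusted p in their list. No overlap was also seen in 76.7% of all tested genes.

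Of 24 tested genes of the sensors and of interferon signalling, 15 rose and 2 fell, with a median of 0.46. Over all genes 28.2% were higher and 29.4% lower. DDX58, which encodes the RNA sensor RIG-I, was at 68.7, 71.9 and 73.0 CPM with hairpin 2, against 17.2, 18.8 and 18 CPM with hairpin 1. IRF1 was at 80.0, 72.1 and 78.8 CPM with hairpin 2, against 22.4, 24.4 and 23.1 CPM with hairpin 1, and IRF9, which joins the STATs, rose by 1.41. SOCS3, an inhibitor of cytokine signalling, fell to 4.09, 3.28 and 3.76 CPM with hairpin 2, against 11.8, 12.6 and 12 CPM with hairpin 1. CGAS, the DNA sensor (-0.27), USP18 (-0.13) and IFNGR1 (0.07) did not pass. CGAS was called lower with only the 6 libraries in the edgeR fit (adjusted p = 0.0021). The type I interferon gene IFNB1 was too low to be tested, with 4 reads in all with hairpin 2 and 1 with hairpin 1. Over the interferon lists 61 of 83 distinct tested genes rose and 5 fell. Of these rises 32 were at least 2-fold, beside 6.57% of all genes. DDX60L (0.00), LGALS3BP (-0.05) and SAMD9 (0.20) were among the effectors that did not pass.

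MHC class I genes, which present peptides to T cells, rose too, with a median of 0.66. Of 22 tested 15 rose and 3 fell, beside 28.2% higher and 29.4% lower over all genes. Of the rises 7 were at least 2-fold, beside 6.57% of all genes. HLA-B was at 459, 471 and 471 CPM with hairpin 2, against 118, 113 and 116 CPM with hairpin 1. B2M, the shared light chain, was at 477, 477 and 496 CPM with hairpin 2, against 239, 239 and 231 CPM with hairpin 1. TAP1, a peptide transporter subunit, was at 97.6, 101 and 103 CPM with hairpin 2, against 31.9, 31.0 and 34.6 CPM with hairpin 1. Its chaperone partner TAPBP rose by 1.16. The immunoproteasome subunit PSMB8 (0.07), the class I activator NLRC5 (0.03) and the chaperone CANX (0.34) did not pass. CANX was close to the threshold (adjusted p = 0.0506 in edgeR). It was called higher by the DESeq2 Wald test (adjusted p = 0.0242) and with only the 6 libraries in the edgeR fit (adjusted p = 1.05e-07). Reads of the HLA genes can be divided between near-identical copies, so single HLA values are less certain.

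Genes of the NF-kB pathway and its inflammatory targets were mostly higher with hairpin 2 than with hairpin 1. NF-kB is a set of dimers held in the cytoplasm by inhibitors that are themselves induced by it. Of 25 tested subunits, inhibitors and feedback genes, 17 rose and 1 fell, beside 28.2% higher and 29.4% lower over all genes. Of the rises 7 were at least 2-fold, beside 6.57% of all genes, and the median was 0.79. Against the hairpin 1 mean, the list median was 0.77, 0.69 and 0.75 in the hairpin 2 libraries and 0.27, 0.34 and 0.45 in the control libraries. TRAF1, a signalling adaptor gene, was at 33.2, 35.0 and 37.1 CPM with hairpin 2, against 6.21, 7.66 and 6.15 CPM with hairpin 1. ICAM1, an adhesion receptor gene, was at 289, 280 and 285 CPM with hairpin 2, against 143, 139 and 145 CPM with hairpin 1. Its control mean was 302 CPM, nearer to hairpin 2. MAP3K14, the kinase of the alternative pathway, fell by 0.93. Its means were 51.9 CPM with hairpin 2, 99.0 CPM with hairpin 1 and 56.5 CPM in the control line. CHUK, TRAF2 and IKBKB did not pass (0.05, 0.14 and 0.09).

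Of 18 tested chemokines and cytokines 11 rose and 2 fell, beside 28.2% higher and 29.4% lower over all genes. Of the rises 8 were at least 2-fold, beside 6.57% of all genes, and the median was 0.55. Against the hairpin 1 mean, the list median was 0.73, 0.54 and 0.71 in the hairpin 2 libraries. It was 0.71, 0.99 and 0.86 in the control libraries, so for this list the control line was not near hairpin 1. IL32, an inflammatory cytokine gene, was at 708, 680 and 701 CPM with hairpin 2, against 158, 153 and 155 CPM with hairpin 1. LTB, the lymphotoxin beta gene, was at 38.6, 35.8 and 34.7 CPM with hairpin 2, against 4.83, 3.83 and 4.25 CPM with hairpin 1. The macrophage growth factor gene CSF1 was at 38.6, 40.1 and 39.1 CPM with hairpin 2, against 5.88, 6.49 and 5.58 CPM with hairpin 1. LIF fell to 115, 116 and 114 CPM with hairpin 2, against 216, 212 and 209 CPM with hairpin 1. CXCL1 did not pass (-0.16, adjusted p = 0.132 in edgeR) but was called lower with only the 6 libraries in the edgeR fit (adjusted p = 0.00827).

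Promoters of the rising immune genes are shown for the letters of interferon and NF-kB sites. The window is the same, and capitals mark matches on either strand to the interferon-stimulated response element (GAAA, 2 bases of any kind and GAAA again), to the kappaB letters (GGGA, 2 bases of any kind and TTCC), to CCAAT and to TTTGAA. IFI44 lies on chromosome 1 (chr1:78649639-78649818, plus strand), B2M on chromosome 15 (chr15:44711367-44711546, plus strand), TAP1 on chromosome 6 (chr6:32853675-32853854, minus strand), LTB on chromosome 6 (chr6:31582396-31582575, minus strand) and IL32 on chromosome 16 (chr16:3065253-3065432, plus strand).
IFI44: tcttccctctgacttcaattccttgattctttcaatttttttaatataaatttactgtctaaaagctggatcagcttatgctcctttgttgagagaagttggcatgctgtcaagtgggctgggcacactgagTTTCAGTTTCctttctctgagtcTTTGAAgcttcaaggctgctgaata
B2M: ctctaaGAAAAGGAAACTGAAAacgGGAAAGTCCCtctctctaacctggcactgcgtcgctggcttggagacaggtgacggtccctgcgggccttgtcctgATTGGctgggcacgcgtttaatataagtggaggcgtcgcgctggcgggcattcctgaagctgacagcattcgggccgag
TAP1: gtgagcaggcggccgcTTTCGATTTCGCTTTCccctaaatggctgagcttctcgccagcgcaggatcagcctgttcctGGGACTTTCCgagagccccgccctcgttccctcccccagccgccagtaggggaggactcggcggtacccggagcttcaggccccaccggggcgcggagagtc
LTB: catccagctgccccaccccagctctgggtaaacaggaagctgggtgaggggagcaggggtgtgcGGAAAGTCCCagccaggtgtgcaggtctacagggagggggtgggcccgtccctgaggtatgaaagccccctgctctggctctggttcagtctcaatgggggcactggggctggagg
IL32: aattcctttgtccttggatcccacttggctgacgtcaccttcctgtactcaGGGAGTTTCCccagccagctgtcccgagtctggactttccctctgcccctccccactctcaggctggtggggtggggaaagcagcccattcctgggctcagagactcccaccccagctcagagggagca
In B2M and in TAP1 a pair of overlapping interferon matches appears with 1 kappaB match, at -125 to -116 in B2M and at -72 to -63 in TAP1. IFI44 holds 1 interferon match from -18 to -9, and LTB and IL32 hold 1 kappaB match each.

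The interferon letters were in 30 of 47 effector promoters (63.8%) and 8 of 17 MHC class I promoters (47.1%), against 1.78% of all 10530. As above, list shares count members whatever their change and do not bear on the difference between the lines. The kappaB letters were in 6 of 12 chemokine and cytokine promoters (50.0%) and 4 of 22 NF-kB promoters (18.2%), against 1.11% of all. Over the genes at least 2-fold higher with hairpin 2, 30 of 665 promoters held the interferon letters (4.51%) and 22 the kappaB letters (3.31%). Over those at least 2-fold lower, 7 of 737 held the interferon letters (0.95%) and 9 the kappaB letters (1.22%).

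**Figure D4:**
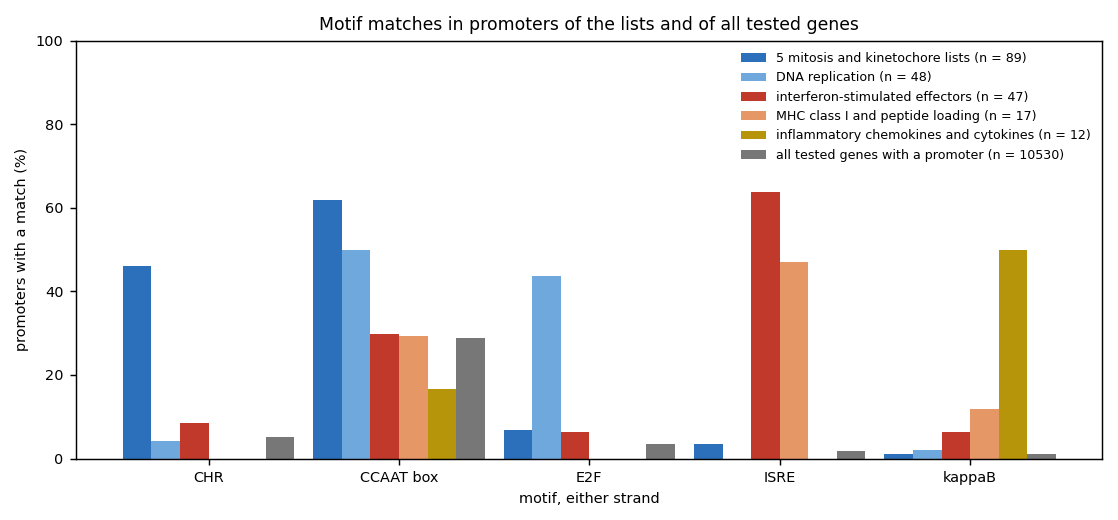
Bars give the percentage of promoters with at least 1 match to each motif, for 5 sets of list genes and for all 10530 tested genes with a promoter. List genes are counted whether or not they differed between the lines. CHR letters stand at 46.1% in the mitosis and kinetochore lists and E2F letters at 43.8% in the replication list, against 5.12% and 3.58% of all, and the interferon letters stand at 63.8% in the effector list, against 1.78% of all.

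Replication-dependent histone genes rose while the replication machinery fell. Their messages end in a stem-loop in place of a polyA tail and are normally made in S phase, and these libraries were enriched for polyA, so messages without a tail are under-sampled. Of 21 tested genes 13 rose and none fell, beside 28.2% higher and 29.4% lower over all genes. Of the rises 11 were at least 2-fold, beside 6.57% of all genes, and the median was 1.24. At an unadjusted p under 0.05 in edgeR, or by the DESeq2 Wald test, 0 were lower. Of the 47 listed 26 were too low to test. H2BC12 was at 73.2, 73.9 and 72.8 CPM with hairpin 2, against 23.6, 19.5 and 20.9 CPM with hairpin 1. H1-2, a linker histone gene, was at 42.3, 38.9 and 40.7 CPM with hairpin 2, against 10.7, 13.3 and 9.45 CPM with hairpin 1, and H2AC6 was at 23.4, 23.4 and 24.7 CPM with hairpin 2, against 3.33, 3.76 and 5.01 CPM with hairpin 1. In each the lines were apart, as in 76.7% of all tested genes. Histone genes are near-identical copies, and counts can be divided between them. Of 10 genes that process histone messages, 4 fell and 1 rose. In either direction that is 50% of this list, below the 57.6% of all genes. SLBP, which binds the stem-loop, fell by 0.41, and CPSF3, the nuclease that cuts the message, fell by 0.76. NPAT, LSM10 and CASP8AP2 did not pass. NPAT was called lower with only the 6 libraries in the edgeR fit (adjusted p = 0.00217).

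Ribosomal protein genes moved little. Of 79 tested 20 fell and none rose, none by 2-fold, with a median of -0.21, beside 29.4% lower over all genes. RPL22 had the smallest adjusted p, at 273, 263 and 248 CPM with hairpin 2, against 432, 430 and 446 CPM with hairpin 1 (-0.74 ± 0.11; adjusted p = 0.000134 in edgeR). RPL19, RPL28 and RPS27A did not pass. The median effective length of these transcripts was 503 bases, and the number called lower was 62 with only the 6 libraries in the fit, 38 with offsets for transcript length and 7 to 15 when a library was left out.

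The ERK pathway's output genes were not of 1 direction. Of 21 tested 3 rose and 11 fell, beside 28.2% higher and 29.4% lower over all genes, with a median of -0.61. DUSP6, a phosphatase induced by ERK that turns it off, fell to 51.4, 51.4 and 50.1 CPM with hairpin 2, against 195, 175 and 183 CPM with hairpin 1. FOS, an immediate-early transcription factor gene, was higher, at 57.1, 56.4 and 56.5 CPM with hairpin 2, against 7.19, 6.16 and 6.59 CPM with hairpin 1. Its means were 28.7 CPM in the control line and 104 CPM with hairpin 3. PHLDA1 fell by 1.24 and EGR1 rose by 0.90, while SPRED1, SPRED2 and FOSL1 did not pass. EGR1 had means of 300 CPM with hairpin 2 and 161 CPM with hairpin 1. It averaged 508 CPM in the control line and 441 CPM with hairpin 3. For DUSP6 and PHLDA1 the control mean lay nearer to hairpin 1. Genes of the ATF4 pathway, which answers to amino acid shortage, had 9 higher and 17 lower of 38 tested, with a median of -0.20. Against the hairpin 1 mean, the list median was -0.18, -0.24 and -0.20 in the hairpin 2 libraries. It was 1.56, 1.74 and 1.78 in the control libraries, so for this list the control line was near neither hairpin line. In either direction 68.4% of this list was called, beside 57.6% of all genes, and the share that rose was near the 28.2% of all genes. PSAT1, a serine synthesis enzyme, was at 49.2, 47.6 and 50.1 CPM with hairpin 2, against 140, 135 and 143 CPM with hairpin 1. Its control mean was 472 CPM. ATF3, a stress transcription factor, was at 66.2, 61.9 and 62.5 CPM with hairpin 2, against 20.7, 19.7 and 22.6 CPM with hairpin 1. The means of ATF3 were 90.4 CPM in the control line and 53.9 CPM with hairpin 3. SLC38A2, SLC1A5 and EPRS1 did not pass. SLC38A2 was called lower with only the 6 libraries in the edgeR fit (adjusted p = 0.0168).

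Keratin and adhesion genes were read in the epithelial background of the line. Of 29 epithelial genes 13 fell and 5 rose, which is 62.1% called beside 57.6% of all genes, with a median of -0.34. KRT8, a keratin of simple epithelia, was at 320, 317 and 311 CPM with hairpin 2, against 971, 942 and 955 CPM with hairpin 1. KRT20, a gut keratin, was at 7.45, 7.91 and 7.51 CPM with hairpin 2, against 48.0, 47.8 and 46.5 CPM with hairpin 1, and CLDN1, a tight junction gene, rose by 1.69. For both genes the control line lay nearer to hairpin 2. The control mean of KRT20 was 10.9 CPM. CLDN1 had means of 16.4 CPM in the control line, 14.9 CPM with hairpin 2 and 4.62 CPM with hairpin 1. JUP, TJP1 and DSP did not pass. With only the 6 libraries in the edgeR fit, TJP1 was called lower and DSP higher (adjusted p = 0.0217 and 0.000106). Of 27 integrin, laminin and matrix genes 16 fell and 6 rose, beside 29.4% lower and 28.2% higher over all genes, with a median of -0.55. Of 8 mesenchymal genes 5 fell and 1 rose, which is 75% called beside 57.6% of all genes. AXL, a receptor kinase, was at 162, 165 and 158 CPM with hairpin 2, against 440, 432 and 439 CPM with hairpin 1, and TAGLN did not pass (0.39, adjusted p = 0.0571 in edgeR). TAGLN was called higher by the DESeq2 Wald test (adjusted p = 0.0367) and with only the 6 libraries in the edgeR fit (adjusted p = 7.91e-06).

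The remaining lists are read against the 28.2% of all tested genes that were higher and the 29.4% that were lower. Of 24 cholesterol synthesis genes 11 rose and 6 fell, with a median of 0.09. HMGCS1, an early enzyme of the pathway, rose by 0.92. Of 20 heat shock chaperones 6 rose and 7 fell, shares near those of all genes. HSPA1B was at 257, 246 and 227 CPM with hairpin 2, against 73.9, 79.1 and 73.1 CPM with hairpin 1, and HSP90AA1 fell by 0.83. HSPA1B has a near-identical copy, HSPA1A, and the counts of the pair can be divided. Of 29 tested neighbours of SKA2 on 17q22-q23 10 rose and 10 fell, with a median of 0.03. In either direction that is 69.0% of these neighbours and 57.6% of all genes, and the shares each way are close to those of all genes. TRIM37, a ubiquitin ligase gene, was at 200, 197 and 196 CPM with hairpin 2, against 89.2, 93.6 and 90.8 CPM with hairpin 1, and RNF43 rose by 2.02.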

How the data were processed

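RNA-seq of polyA-selected RNA was made in 12 libraries of SNU638, 3 for each of 4 lines, on the BGISEQ-500 platform per the labels. The submitters' processing notes name build GRCh38.p13 and the tools HISAT, Bowtie2, RSEM and DESeq2, with no role or version. A table of 17303 genes was deposited, holding expected counts, FPKM and TPM per library, per the file headers, and its 15 columns of group averages were left out.

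The deposited expected counts, after rounding to integers, went into edgeR (4.0.16, R 4.3.3): filterByExpr on the 4 lines, TMM scaling, 1 quasi-likelihood fit over 12 libraries (8 residual degrees of freedom, common BCV 0.111), and the contrast of hairpin 2 minus hairpin 1. Adjusted p is Benjamini-Hochberg over all 12868 tested genes. SE is the absolute log2 fold change divided by the square root of the F statistic, and CPM is scaled to the library total after TMM. Effective lengths came from the deposited FPKM values, and the deposited TPM values were tested with limma (3.58.1) on log2(TPM + 1) as an alternative, with DESeq2 (1.42.0) as another. Fold changes on that log2 scale, from TPM scaled by the authors, are smaller for low genes. No strand-marking step is named in the protocol, and antisense overlaps are therefore uncertain. Positions came from GENCODE v29 by Entrez identifier, and promoters are the first listed start per gene on a standard chromosome. The test was checked on simulated counts.

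The libraries compared, the gene lists, the motifs and the rule for named genes were chosen with earlier results of these data known. PRR11 and the 3 SKA genes were named whatever their values. The 12 largest rises and 12 largest falls were taken from called genes that averaged 1 CPM or more in the 6 libraries and whose lines did not overlap. For each list up to 4 called members with the smallest adjusted p were named, and up to 3 members of at least 5 CPM with the largest adjusted p among those that did not pass. CENPC, ORC4, FANCL, CDK6, IFNB1, HSPA1A and PPAN-P2RY11 were named after their values were seen. Intervals and floors cover counting error only. Some genes and 1 gene list that the rule would name are not reported here.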

Additional observations from a re-analysis of the deposited data

How the results depend on the processing

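Of the 7413 calls, 98.1% were shared when libraries were scaled by DESeq2 size factors, 97.5% by the DESeq2 Wald test, 84.4% by limma on log2(TPM + 1), 96.6% with no filter on low counts, 99.2% with only the 6 libraries in the fit and 96.0% with offsets for transcript length. A call in the opposite direction occurred for 1 gene, with limma on TPM, which also gave 505 genes at least 2-fold lower. Testing against a fold of 1.5 with glmTreat left 1087 genes higher and 1177 lower, and left 11 outer kinetochore, 34 replication, 9 nucleotide supply, 16 repair and 0 ribosomal protein genes lower, and 6 sensor, 28 effector and 10 NF-kB genes higher. This test asks for more than a difference from 0. The ribosomal protein count was 62 with only the 6 libraries and 38 with length offsets.

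Leaving out each library in turn gave 3207 to 3428 genes higher and 3215 to 3390 lower, and 7 to 15 ribosomal protein genes lower. That count was 15, 8 and 7 without hairpin 2 replicates 1, 2 and 3, and 10, 9 and 10 without hairpin 1 replicates 1, 2 and 3. The log2 fold change of SKA2 stayed between 0.03 and 0.15. With 2 libraries left in a line, the spread is taken from all lines.

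The replicate numbers did not pair the hairpin 2 and hairpin 1 libraries: deviations from the line means correlated at -0.015, -0.055 and 0.0296 for numbers 1, 2 and 3. The hairpin 3 and control libraries of the same number, which enter the fit only for the spread, did deviate together, at 0.728, 0.170 and 0.600. A fit with the replicate number as a block called 3707 genes higher and 3875 lower, 849 and 969 of them at 2-fold, and SKA2 was at 0.0745 (adjusted p = 0.502 in edgeR).

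Medians near 0 changed sign. That of the heat shock chaperones was 0.0249 with limma on TPM and 0.0136 with no filter, and ran from -0.0438 to 0.0191 when a library was left out. That of the 17q22-q23 genes was -0.0104 with limma on TPM and -0.0267 with only the 6 libraries, and ran from -0.0452 to 0.146. The blood marker median was 0.0888 with no filter and ran from -0.508 to 0.13. Of 202 named genes, 19 that did not pass were called with length offsets, 24 with only the 6 libraries and 5 by DESeq2, in the direction reported. With length offsets ATR was called lower at -0.14 (adjusted p = 0.0273 in edgeR) and RPL28 higher at 0.14 (adjusted p = 0.0342 in edgeR). The cause of these changes was not tested. With 3 libraries per line the exact test cannot go below 0.1.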
